A study of Mus musculus with 6 samples.

Results

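The transcripts described here belong to 34 genes of the p53 pathway: the p53 gene itself, 2 genes of its negative regulators, and 31 genes known as transcriptional targets of p53. The list was made by gene name, with no measured value in its rule. On the Mouse Gene 2.0 ST array a transcript cluster is the set of probes for 1 transcribed locus, and 31 of the 34 genes had a transcript cluster annotated to 1 gene symbol, out of 22180 such genes. Trp53 and Bax had no transcript cluster under their own symbol in the annotation used and are not analysed here. Ddb2 was listed only with another gene on 1 transcript cluster and is not used either. Each of the 31 measured genes had 1 transcript cluster of its own, so no choice between clusters was needed for them.

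The cells were myeloid cells from mouse fetal liver, all grown in GM-CSF at 1 ng/ml, and 6 RNA samples were hybridised, each to 1 array. The 3 uninduced samples (A, B and C) had no doxycycline, and the 3 induced samples (A, B and C) had received 1000 ng/ml of it over 72 hours, which the labels equate with PU.1 expression. The labels give neither the genotype, strain or construct of the cells nor a sample with doxycycline but no PU.1 induction, so effects of the drug and of PU.1 cannot be told apart. Nor do they state whether replicates came from separate cultures, and the p-values below then measure only the spread between these arrays, which may be technical.

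p53 is a transcription factor that is held at low levels in unstressed cells by the ubiquitin ligase Mdm2 and its relative Mdm4. When DNA damage or other stress releases it, p53 switches on genes that stop the cell cycle, repair DNA, adjust metabolism and growth signalling, or start apoptosis, and it also switches on Mdm2, which closes a feedback loop. In blood cell progenitors the pathway is known to limit survival after genotoxic stress. Levels of target transcripts are often read as a gauge of p53 activity, although many of these genes are also controlled by other factors.

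p53 binds DNA as a tetramer at pairs of a half-site, which reads 3 purines, C, 2 letters that are each A or T, G and 3 pyrimidines, the same on both strands. RefSeq promoter windows of GRCm38 (250 bases before to 50 after a transcription start) were found for 24 of the 31 measured genes. Perp, Pmaip1, Rrm2b, Tnfrsf10b, Trp53inp1, Xpc and Zmat3 had no window and were not searched. Of the 24 genes, 6 (25.0%) had an exact half-site in a window. One was present for 9.55% of all 27025 genes with such windows. An exact pair with at most 13 bases between the half-sites was found for 0 of the 24 genes and for 0.074% of all those genes, among them Cdkn1a, the p21 gene, which is the best known p53 target but is not one of the 34. Mdm2, Ccng1, Sesn1, Ei24 and Polk are shown as the measured members whose match lies upstream of the start in every window that holds it, and Cdkn1a because it has the full pair. Aen, the other member with a match, has it at position -121 from 1 annotated start but at position 10, past the start, from another, and is named only. Each line runs 5′ to 3′ on the gene's strand with the exact half-site in capitals. The half-sites of Ccng1, Sesn1 and Polk lie before starts inside the annotated gene, in Ccng1 close to its 5′ end. Counted from the start, the half-site begins at position -186 in Mdm2, -185 in Ccng1, -173 in Sesn1, -10 in Ei24 and -231 in Polk, and the pair of Cdkn1a at -73 and -51.
Mdm2 (chr10:117710915-117710964, minus strand): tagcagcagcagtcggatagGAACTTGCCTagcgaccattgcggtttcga
Ccng1 (chr11:40755442-40755491, minus strand): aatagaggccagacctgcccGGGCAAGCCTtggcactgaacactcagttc
Sesn1 (chr10:41887246-41887295, plus strand): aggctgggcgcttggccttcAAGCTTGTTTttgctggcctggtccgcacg
Ei24 (chr9:36797335-36797364, minus strand): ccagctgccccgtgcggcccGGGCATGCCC
Polk (chr13:96519389-96519437, minus strand): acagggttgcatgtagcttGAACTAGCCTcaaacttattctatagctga
Cdkn1a (chr17:29090886-29090957, plus strand): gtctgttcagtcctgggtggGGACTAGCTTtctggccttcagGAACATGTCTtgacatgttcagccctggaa
A match describes letters in the window and not a bound site, and p53 sites of many targets lie outside such windows.

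The values are log2 expression values deposited by the authors, 1 per transcript cluster and array. As a reference for genes these cells are not known to use, the 95th percentile of 1394 olfactory and vomeronasal receptor genes was taken on each array, and a value below it is called in the range of background. That percentile lay between 7.05 and 7.39 on the uninduced arrays and induced A, but at 7.99 on induced B and 7.85 on induced C, and the interquartile range of all values was narrowest on those last arrays (2.17 and 2.21, against 2.37 to 2.62 on the other arrays). Induced B and induced C thus stood apart from induced A, and the called genes and the median of the members are also given with induced A alone. Of the 31 measured members 8 were above the range of background on all 6 arrays, 21 on at least 3 arrays, and 6 on none. Some values in that range on induced B and C, such as those of Psrc1, were above the percentile of every uninduced array. Of 12 myeloid marker genes 10 were above it on at least 3 arrays, while none of the measured erythroid, B cell, T cell, megakaryocyte or fibroblast markers was.

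Setting induced against uninduced cells addresses, for this pathway, whether p53 targets moved in cells in which PU.1 is induced and which the series title links to cell cycle exit. Of the 31 measured members 0 rose and 1, the death receptor gene Tnfrsf10b, fell at a limma adjusted p under 0.05. In the higher direction 0 members had an unadjusted limma p under 0.05 either, where 11.4% of all genes (2538) had one. Of those 2538 genes, 2100 were not above the range of background on at least 3 arrays. Among all genes, 1.05% were called lower and 0.374% higher. A further 10 members were lower at an unadjusted limma p under 0.05 only, so 11 of 31 in all, where 16.9% of all genes were.

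Most measured members lay below their uninduced mean without passing the test. Differences are induced minus uninduced on the log2 scale throughout, and 27 of the 31 were below 0, with a median of -0.34 and a range from -1.26 to 0.29. Taken array by array against the uninduced mean, the median of the members stood at -0.12 for induced A, -0.27 for B and -0.38 for C. In 13 members all 3 induced arrays were below all 3 uninduced ones, which held for 15.4% of all genes. In 0 members all induced arrays were above, which held for 16% of all genes (3550). Of those 3550 genes, 3121 were not above the range of background on at least 3 arrays.

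That lower level has to be read against the arrays as a whole, since measured differences depended on how bright a gene was. Over all 22180 genes the median difference was 0.06, but over the 8770 genes above the range of background on at least 3 arrays it was -0.31, and 83.9% of those genes were below 0. For the 21 members that met the same condition the median was -0.38, 20 of 21 were below 0, 11 had groups that did not overlap in the lower direction, and 9 had an unadjusted limma p under 0.05. The share of all genes of that kind was 33.5% for groups apart in the lower direction and 38.6% for an unadjusted p under 0.05. The members' 11 of 21 is 52.4%, above the first share, and their 9 of 21 is not far from the second. In the higher direction 429 of the 8770 genes had groups apart and 438 had an unadjusted limma p under 0.05. Of the 21 members 0 had either. The condition can be met through the 3 uninduced arrays alone. Tnfrsf10b met it with 0 induced arrays above, and Psrc1, Sesn1, Sesn2, Polk, Xpc, Zmat3, Ercc5, Plk3 and Tigar with 1. The range of background also reached higher on induced B and C, so the condition favours genes that read lower there, members or not. These counts of the 21 are therefore a description and no support for a lower level of the members. After cyclic loess, which removes a trend of difference with brightness, the median of the 31 members was -0.18 and 24 were below 0, against a median of 0.002 over all genes. For the 21 members above, the median was then -0.13 and 15 were below 0, against -0.02 and 53.4% for the 8770 genes. Tnfrsf10b remained the 1 member called (limma adjusted p = 0.0256), where 0.532% of all genes were called lower.

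**Figure D1:**
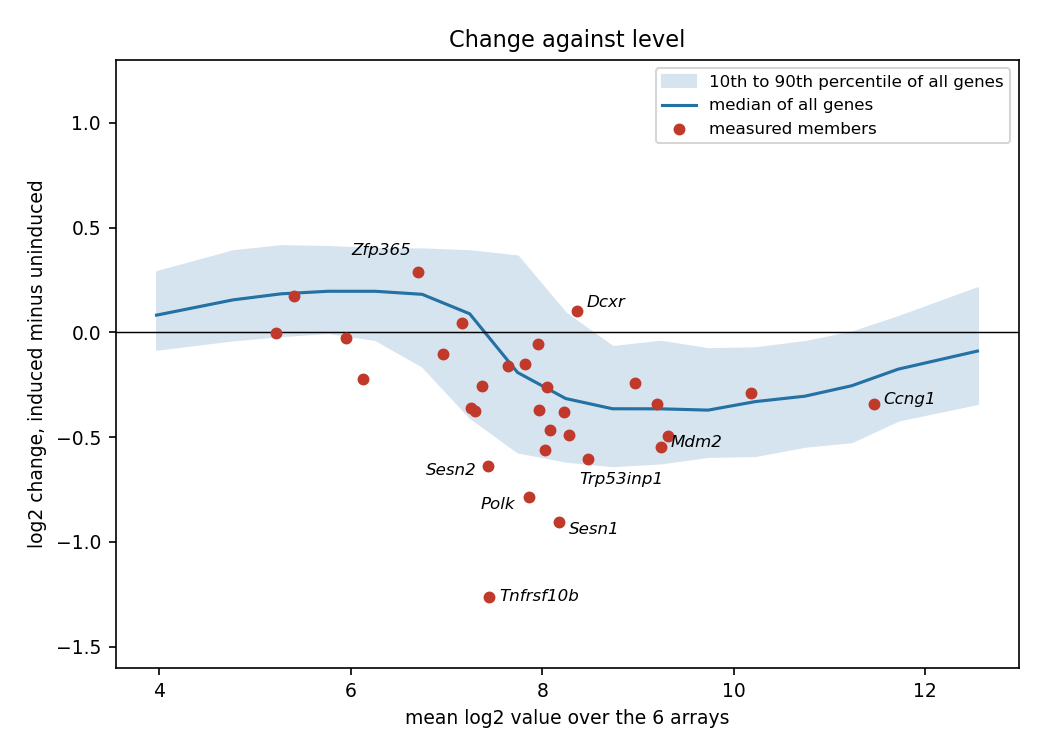
Log2 difference (induced minus uninduced) against the mean log2 value over the 6 arrays. Red points are the 31 measured members, the blue line is the median and the blue area the 10th to 90th percentile of all genes in bins of level that are mostly 0.5 wide. The median of all genes is above 0 at low levels and near -0.37 at levels around 9. Tnfrsf10b, Sesn1, Polk, Sesn2, Bbc3 and Perp lie below the area, Perp only just.

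Set beside genes of like brightness, in bins of mean log2 value, 22 of the 31 members were below the median difference of their bin and 6 were below its 10th percentile. Those 6 were Tnfrsf10b, Sesn1, Sesn2, Polk, Bbc3 and Perp, of which Bbc3 and Perp were in the range of background on all 6 arrays. The enzyme gene Dcxr was the 1 member above the 90th percentile of its bin. These places are descriptions of where the members lay, with no test.

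**Figure D2:**
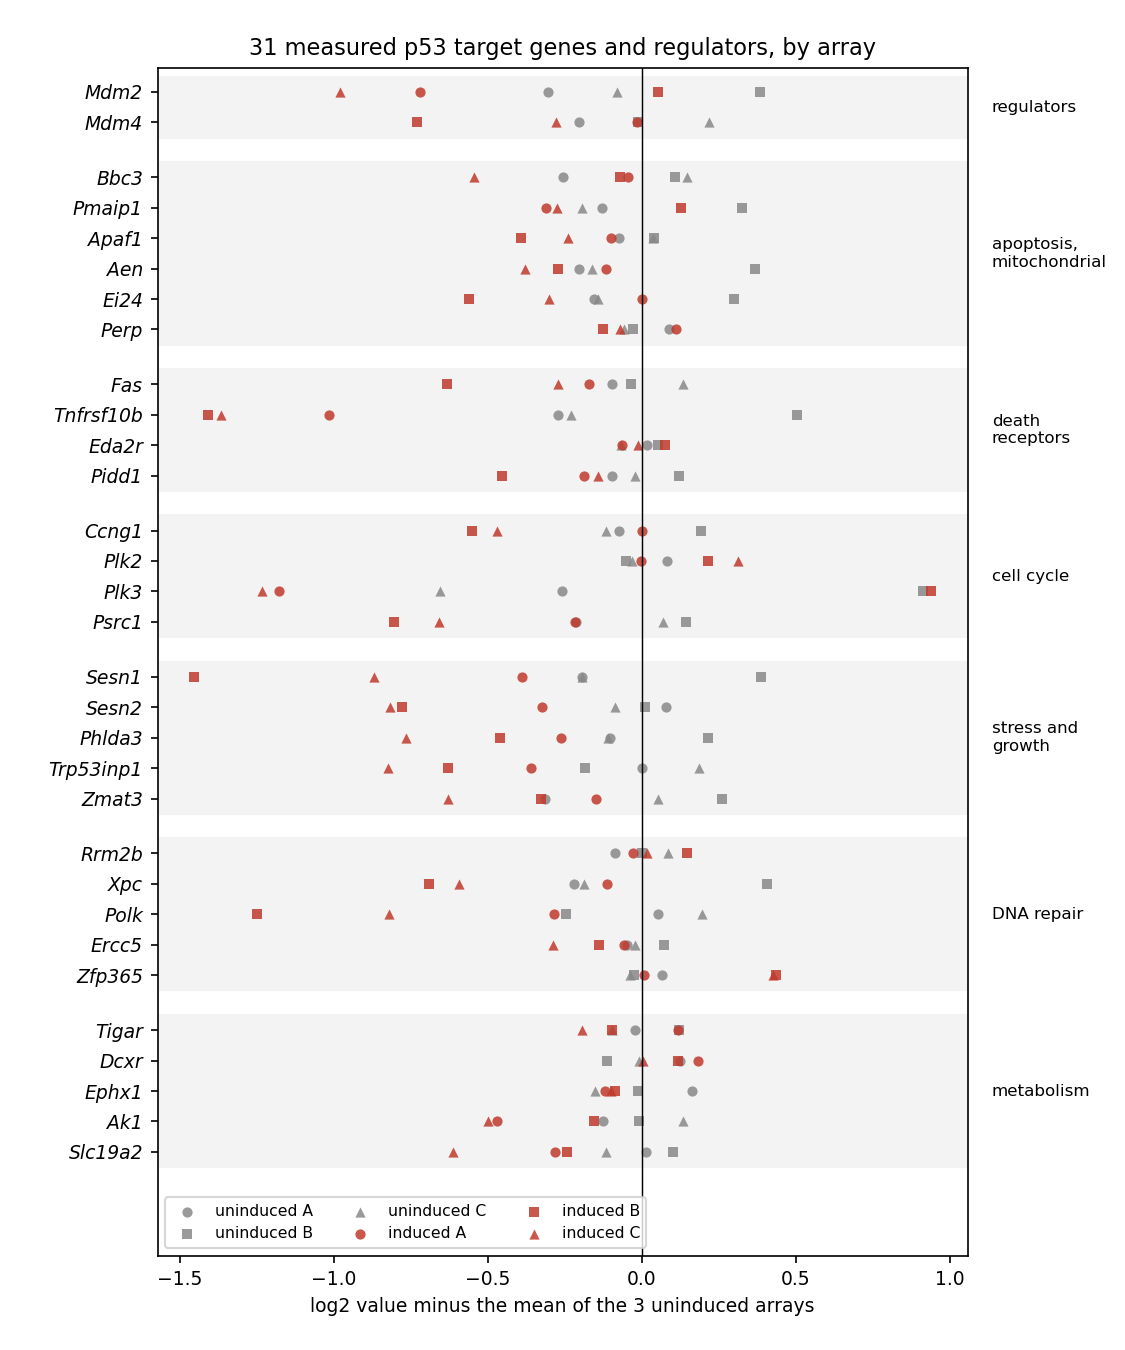
Log2 value of each measured member on each array minus the mean of the 3 uninduced arrays, grouped by role. Grey symbols are uninduced and red symbols induced arrays, with circles, squares and triangles for A, B and C. Induced values lie mostly to the left of 0, and those of induced A (red circles) are the closest to 0 for many genes.

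Among the death receptors and their adaptor, Tnfrsf10b encodes the TRAIL receptor DR5, which starts apoptosis from the cell surface (chromosome 14, 69767472 to 69784411 in RefSeq GRCm38, the assembly also called mm10). Tnfrsf10b read 7.81, 8.58 and 7.85 without doxycycline (A, B and C in that order, as for all genes below) and 7.06, 6.67 and 6.71 with it. The groups were well apart, and all 3 induced values were in the range of background while all 3 uninduced values were above it. The difference was -1.26 (SE 0.21, limma adjusted p = 0.0169), which as measured is 2.40-fold lower, and as a bound against the range of background at least 1.26-fold lower. It was -1.01 in induced A alone, so the direction did not rest on induced B and C, but the call ended without induced B (adjusted p = 0.0742), without induced C (adjusted p = 0.0914), with induced A alone (adjusted p = 0.585) and after median centring (adjusted p = 0.0521).

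Fas, the receptor of Fas ligand, read 7.34, 7.40 and 7.57 without doxycycline and 7.27, 6.80 and 7.16 with it. The induced values were all lower, yet all were in the range of background, and the difference of -0.36 (SE 0.15) did not pass the test (limma adjusted p = 0.162). Pidd1, an adaptor that links p53 to caspase activation, was at 8.08, 8.30 and 8.16 and then at 7.99, 7.73 and 8.04, a narrow gap between the groups with a difference of -0.26 (limma adjusted p = 0.220). Eda2r, another receptor of the same superfamily, was in the range of background on all 6 arrays.

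Of the regulators, Mdm2 read 9.21, 9.90 and 9.43 without doxycycline and 8.79, 9.56 and 8.53 with it. The groups overlapped, since induced B was higher than uninduced A and uninduced C. Mdm2 differed by -0.55 (SE 0.26, limma adjusted p = 0.185), and the 95% interval (for this gene alone, with no correction for many genes) spanned 0.46-fold to 1.01-fold of the uninduced level. After cyclic loess the interval ran from 0.571-fold to 1.36-fold, so a modest rise lies within it under that scaling. Mdm4, which binds p53 and blocks its activation domain, had overlapping groups and a difference of -0.34 (SE 0.19, limma adjusted p = 0.238), which was 0.03 after cyclic loess.

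The cell cycle genes included Ccng1, the cyclin G1 gene and a well-known p53 target. Ccng1 read 11.56, 11.82 and 11.51 without doxycycline and 11.63, 11.08 and 11.16 with it. Induced A lay within the uninduced values and induced B and C below them, and the difference of -0.34 (SE 0.17) had a 95% interval from 0.609-fold to 1.02-fold (limma adjusted p = 0.202), or from 0.803-fold to 1.11-fold after cyclic loess. Psrc1, a microtubule-binding protein of the mitotic spindle, was at 8.10, 8.46 and 8.38 and then at 8.10, 7.51 and 7.65. Uninduced A and induced A were almost equal, and the difference of -0.56 (SE 0.17, limma adjusted p = 0.116) came mainly from induced B and C, both in the range of background. Plk2, a polo-like kinase, was in the range of background on all 6 arrays.

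The genes of stress and growth signalling had a median difference of -0.61 over 5 members, all measured below 0 and none past the test. That median was -0.29 after cyclic loess and -0.32 with induced A alone. As deposited it was the lowest of the 7 role groups, but with induced A alone the 2 measured regulators were lower, at -0.37. Sesn1 and Sesn2 encode sestrins, which restrain mTORC1 signalling when amino acids are short or cells are stressed. Sesn1 read 8.43, 9.01 and 8.43 without doxycycline and 8.24, 7.17 and 7.76 with it. Induced B was the lowest and, like induced C, in the range of background, and induced A was only a little below uninduced A and C. The difference of Sesn1 was -0.90 (SE 0.25, limma adjusted p = 0.102), and -0.39 in induced A alone. Sesn2 was at 7.84, 7.77 and 7.67 and then at 7.43, 6.98 and 6.94, with tight uninduced values and a clear gap, but induced B and C in the range of background. Its difference was -0.64 (SE 0.16, limma adjusted p = 0.0764), and -0.32 in induced A alone.

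Trp53inp1, a stress protein that takes part in autophagy and cell death, read 8.79, 8.60 and 8.97 without doxycycline and 8.42, 8.15 and 7.96 with it. All 6 values were above the range of background and the groups did not overlap, with a difference of -0.61 (SE 0.16, limma adjusted p = 0.0899) that was -0.29 after cyclic loess. Phlda3, which competes with Akt for membrane lipids, was at 9.46, 9.78 and 9.46 and then at 9.30, 9.11 and 8.80. Its groups did not overlap either, but its difference of -0.50 (SE 0.16, limma adjusted p = 0.123) shrank to -0.13 after cyclic loess. Zmat3, an RNA-binding zinc finger protein, had overlapping groups and a difference of -0.37.

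**Figure D3:**
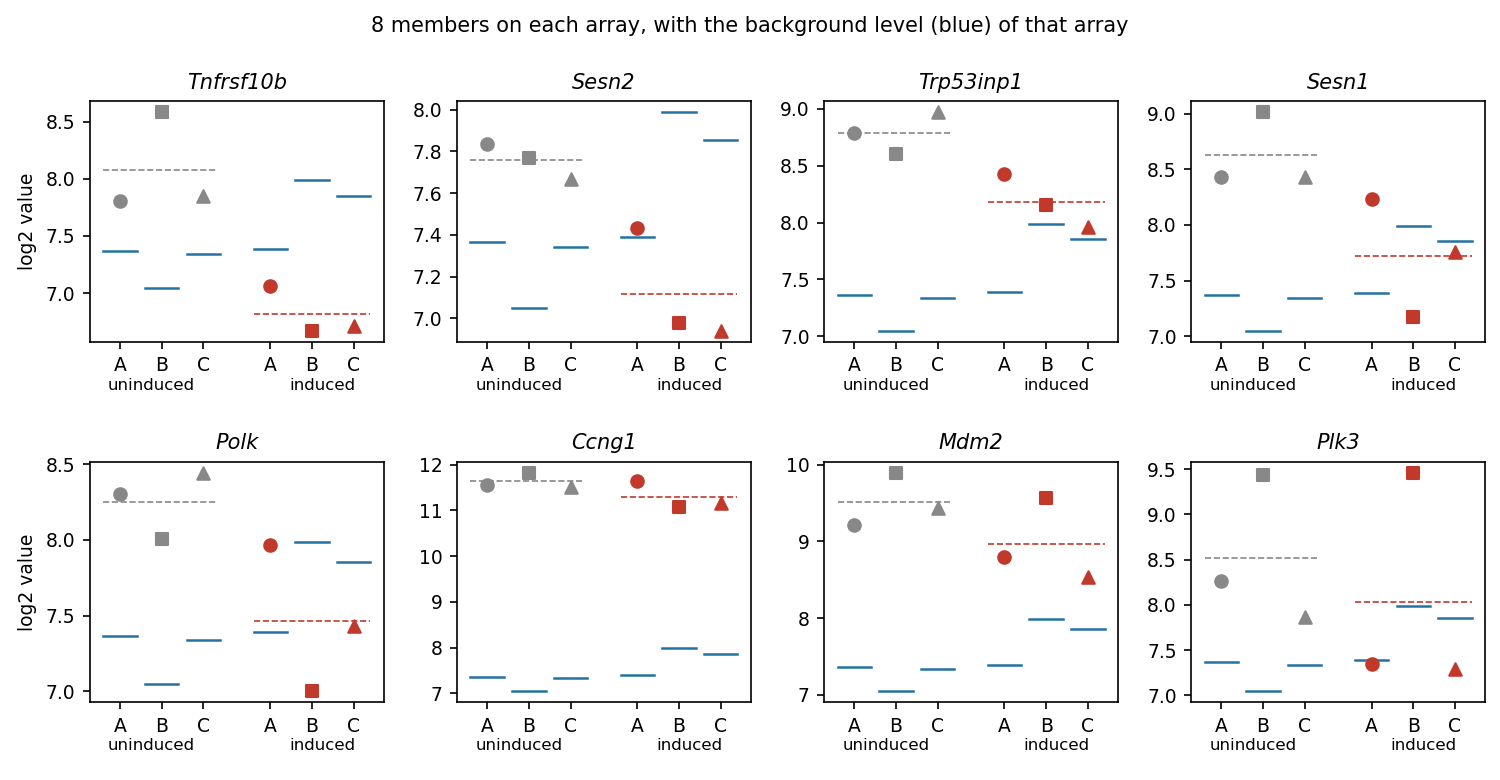
Log2 values of 8 members on the 6 arrays. Grey symbols are uninduced and red symbols induced arrays, dashed lines are group means, and each blue line is the upper edge of the range of background on that array. Tnfrsf10b falls below the blue line on all 3 induced arrays, while Mdm2 and Plk3 are highest on array B of each group.

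Among DNA repair genes, Polk encodes a polymerase that copies past damaged bases. Polk read 8.30, 8.01 and 8.44 without doxycycline and 7.97, 7.0 and 7.43 with it. Induced A was just below uninduced B, and induced B and C were in the range of background. Polk differed by -0.79 (SE 0.22, limma adjusted p = 0.102), and -0.28 in induced A alone. Xpc, which recognises distorted DNA in nucleotide excision repair, had overlapping groups and a difference of -0.47 (limma adjusted p = 0.170). Ercc5, an endonuclease of the same repair route, was at 7.68, 7.80 and 7.71 and then at 7.67, 7.59 and 7.44, a very narrow gap with a difference of -0.16 (limma adjusted p = 0.366).

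The other repair members were near or in the range of background. Rrm2b, the p53-inducible ribonucleotide reductase subunit, was above the range of background on 1 array only and had a difference of 0.04. Zfp365, a zinc finger gene linked to genome stability, was in the range of background on all arrays, at 6.63, 6.54 and 6.52 uninduced and 6.57, 7.0 and 6.99 induced. Only induced B and C were above the uninduced values, and the difference of 0.29 did not pass the test (limma adjusted p = 0.211). As deposited this was the highest difference among the members, but it was 0.13 after cyclic loess, below that of Dcxr.

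None of the 6 measured genes grouped under the mitochondrial route to apoptosis passed the test, and their median difference was -0.23. The group also holds Perp, Aen and Ei24, described below, so its median is not that of the mitochondrial route alone. Apaf1, the scaffold of the apoptosome, read 9.02, 9.13 and 9.13 without doxycycline and 8.99, 8.70 and 8.85 with it. Its groups did not overlap, but uninduced A and induced A were close, and the difference of -0.24 (SE 0.13, limma adjusted p = 0.226) turned to 0.11 after cyclic loess. Pmaip1 (Noxa), which frees pro-death proteins by binding Mcl1, had a difference of -0.15 (limma adjusted p = 0.533). Bbc3 (PUMA), a broad antagonist of survival proteins, and Perp, a membrane protein of desmosomes and cell death, were in the range of background on all 6 arrays. Aen, a nuclease, was above that range on 1 uninduced array only, while Ei24, a protein of the endoplasmic reticulum, was above it on all 6 arrays. Their differences were -0.26 and -0.29 with overlapping groups. That of Ei24 was 0.06 after cyclic loess.

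Of the metabolic members, Slc19a2, a thiamine transporter, read 8.43, 8.52 and 8.30 without doxycycline and 8.13, 8.17 and 7.80 with it. The groups did not overlap, with -0.38 between their means (SE 0.14, limma adjusted p = 0.141), or -0.11 after cyclic loess. Ak1, adenylate kinase, was at 7.36, 7.47 and 7.61 and then at 7.01, 7.32 and 6.98, all induced values in the range of background, with a difference of -0.38 (limma adjusted p = 0.143) as deposited and -0.37 after cyclic loess. Tigar, which lowers the glycolytic signal fructose 2,6-bisphosphate, was at -0.06 and at 0.15 after cyclic loess. Dcxr, a carbonyl reductase, had overlapping groups and a difference of 0.10 (limma adjusted p = 0.571). It was the 1 member above the range of background on at least 3 arrays with a difference above 0 as deposited, whereas 6 of the 21 such members were not below 0 after cyclic loess. The difference of Dcxr was then 0.40 (limma adjusted p = 0.209), with a 95% interval from 1.05-fold to 1.64-fold for this gene alone, and 0.39 after quantile normalization (limma adjusted p = 0.197). Ephx1, an epoxide hydrolase, was in the range of background throughout.

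**Figure D4:**
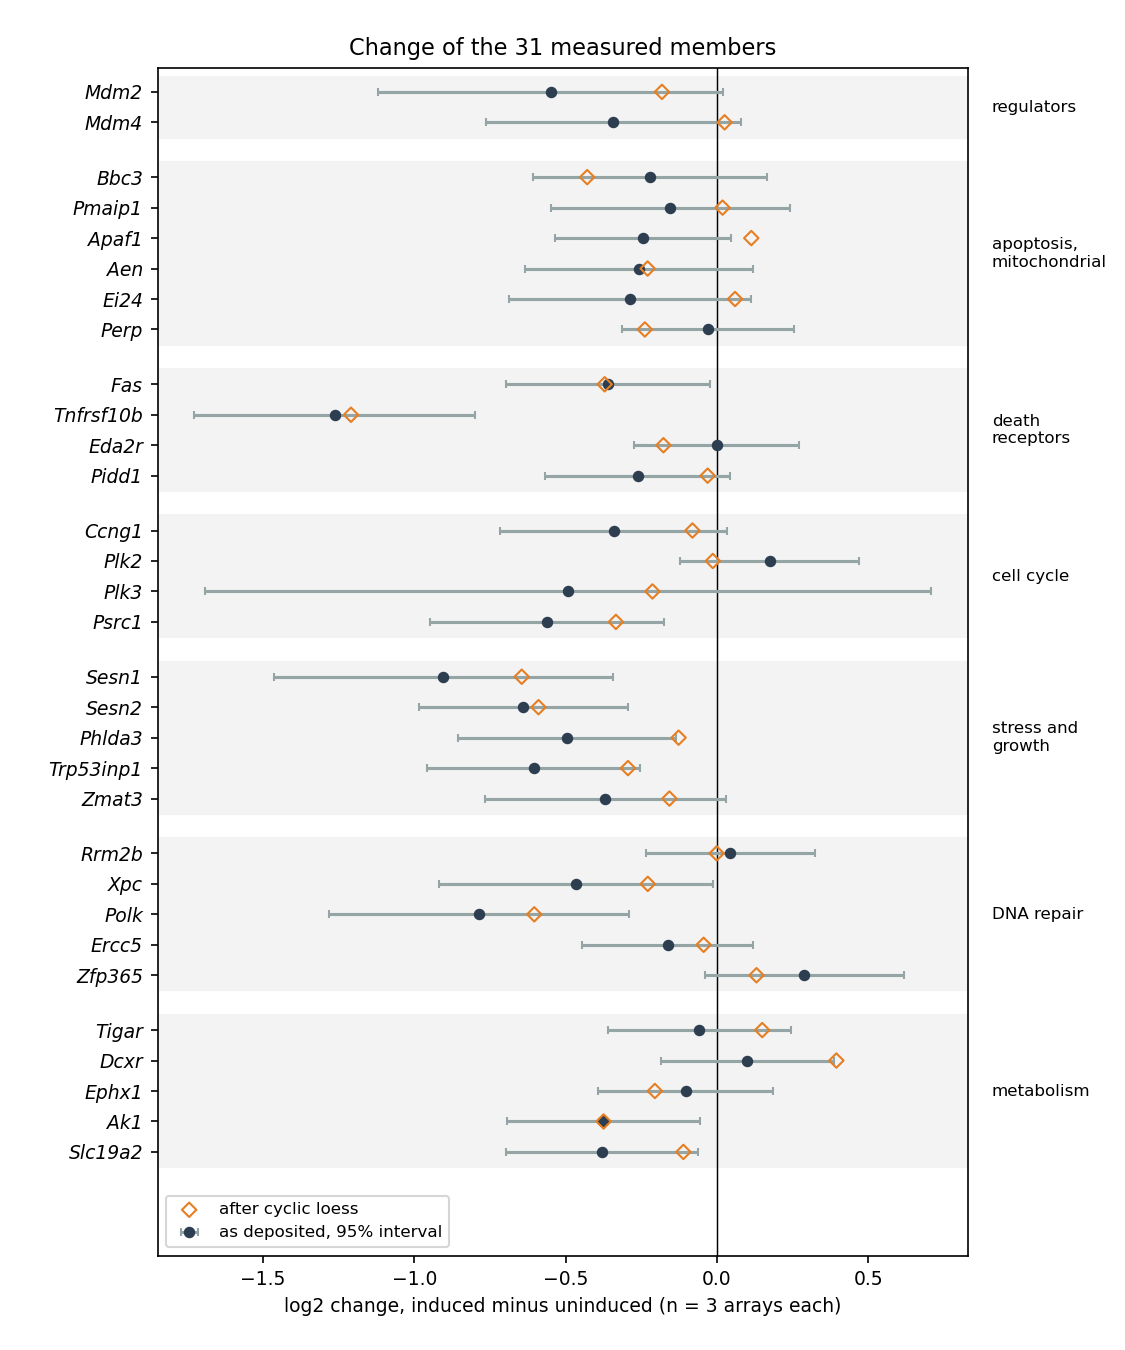
Log2 difference of each measured member, induced minus uninduced, by role. Filled circles with bars are the deposited values with their 95% interval (3 arrays per group, not adjusted for the number of genes), and open diamonds are the values after cyclic loess. The interval of Tnfrsf10b runs from -1.73 to -0.80, and most diamonds lie closer to 0 than the circles.

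Leaving out induced A changed the counts most. Without it limma called 9 members lower (Ccng1, Phlda3, Polk, Psrc1, Sesn1, Sesn2, Tnfrsf10b, Trp53inp1 and Xpc) and 1 higher (Zfp365). In the same comparison 15.9% of all genes were called lower and 9.01% higher, and 37.8% of the 8770 brighter genes were called lower. All 9 lower members were among the 21 brighter ones, and 9 of 21 is not far from that share of all brighter genes. When induced A was the single induced sample the median over the 31 was -0.12, against 0.003 over all genes. For the 21 brighter members it was -0.22, against -0.10 over all brighter genes.

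Replicates differed within each group for a few members, a pattern picked after the values were seen. Plk3, a stress-responsive polo-like kinase, read 8.27, 9.44 and 7.87 without doxycycline and 7.35, 9.46 and 7.29 with it. Array B was thus the highest of each group by 1.37 and 2.14 over the mean of A and C, and induced A and C were both in the range of background. The difference between groups was -0.49 (SE 0.54, limma adjusted p = 0.512), with a 95% interval from 0.31-fold to 1.63-fold. Mdm2 and Pmaip1 shared the pattern, with array B above the mean of A and C by 0.58 and 0.49 in the uninduced group and by 0.90 and 0.42 in the induced group. In all, array B was the highest of both groups for 5 of the 31 members (16.1%) and for 8.01% of all genes. No label says that arrays of 1 letter share a culture or day, and over all genes the deviations of uninduced B and induced B correlated at -0.28 as a description.

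Other genes of the pathway were taken from 2 lists. Of 30 listed kinases, cofactors and modifiers of p53, 29 were measured, and by limma 0 were called in either direction, with 10 lower and 0 higher at an unadjusted p under 0.05 and a median of -0.30. The shares of all genes at that p were 16.9% lower and 11.4% higher. Among the brighter genes, to which 23 of the 29 belonged, 38.6% were lower and 438 of 8770 were higher. The median of this list was -0.027 after cyclic loess and -0.029 after quantile normalization. Atm, the kinase that signals DNA breaks to p53, was at 7.12, 7.63 and 7.28 and then at 7.22, 6.96 and 7.08, in the range of background on 5 of 6 arrays. Cdkn2a, whose Arf product inhibits Mdm2, read 7.88, 7.63 and 7.74 without doxycycline and 7.92, 8.0 and 8.19 with it. Its induced values were all higher, by a narrow margin, and the difference of 0.28 (SE 0.14) did not pass the test (limma adjusted p = 0.191).

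Of 35 other reported p53 targets 29 were measured, and 0 rose and 2 fell, Cdkn1a and Lpin1, with a median of -0.20. Of all genes 0.374% were called higher and 1.05% lower, and 216 of the 8770 brighter genes were called lower. At an unadjusted limma p under 0.05, 1 target was higher and 11 were lower, where 11.4% and 16.9% of all genes were. Among the brighter genes, to which 18 of the 29 belonged, 38.6% were lower and 438 of 8770 were higher at that p. The median of this list was -0.13 after cyclic loess. Cdkn1a, whose product p21 inhibits cyclin-dependent kinases, read 11.28, 11.57 and 11.39 without doxycycline and 10.38, 10.74 and 9.87 with it. The groups were far apart, and the difference was -1.09 (SE 0.20, limma adjusted p = 0.0289), a 2.12-fold lower level. It kept its direction but not its call after cyclic loess (-0.78, adjusted p = 0.143), quantile normalization (adjusted p = 0.117) and median centring (adjusted p = 0.0550), and the call also ended without any 1 of the uninduced samples or induced C (adjusted p between 0.0779 and 0.126). With induced A alone its difference was -1.04 (limma adjusted p = 0.105). Lpin1, a phosphatidate phosphatase of lipid synthesis, was at 10.14, 10.21 and 9.90 and then at 8.96, 8.84 and 8.50. Its difference of -1.32 (SE 0.16, limma adjusted p = 0.0025) was still called after cyclic loess, at -0.95 (adjusted p = 0.0122), but not with induced A alone, at -1.12 (adjusted p = 0.0774).

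Myeloid marker transcripts also differed between the groups. Of 12 such genes 4 rose (Ptprc, Lyz2, Mpo and Cd68) and 0 fell by limma. Of all genes 0.374% were called higher and 1.05% lower, and 44 of the 8770 brighter genes were called higher. Ptprc was in the range of background on all 6 arrays and Mpo on the 3 uninduced ones. Of the other 8 myeloid markers, Cebpa, Laptm5 and Csf2rb had differences of -0.40, -0.21 and -0.09 that did not pass the test. The remaining 5 had differences above 0 that did not pass it either. Over the whole list the mean log2 value ranged from 8.63 to 8.78 in the uninduced and from 9.13 to 9.25 in the induced samples. The part of this shift in the lower values of Tnfrsf10b and the other members was not tested. In RNA from bulk samples, fewer cells that express a gene and less RNA per cell cannot be told apart. Defining markers of other cell types stayed in the range of background, except Kit and Mcpt8 of the mast cell list, Apoa1 of the hepatocyte list, and Pecam1 and Kdr of the endothelial list, each above it on at least 3 arrays, and Pax5 and Igll1 of the B cell list, each above it on 1 uninduced array. No marker of those lists was called by limma.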

How the data were processed

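Each of 6 Mouse Gene 2.0 ST arrays held 1 sample, grouped by its title into 3 uninduced and 3 induced samples. The deposited values are log2 expression values per transcript cluster. Per the submitters' processing notes, Partek and build mm10 were used; how background, normalization and probe summary were handled is not given in the sources used here. That the scale is log2 follows from the range of the values (2.86 to 14.03). Of 41345 transcript clusters 23521 had 1 gene symbol in the platform annotation, 1814 had several and 16010 were not listed. For 1082 genes with several clusters the one with the highest mean over all arrays was used, leaving 22180 genes.

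The comparison used a two-sided linear model without covariates, fitted by lmFit and moderated by eBayes (limma 3.58.1, R 4.3.3), with Benjamini-Hochberg adjustment over all 22180 genes and a threshold of 0.05; the test was checked on simulated data. The members and lists were chosen with earlier results of these data known, so no test was run over a list. Every measured member could be named; values on every array were given for Mdm2, each member past the threshold and each whose groups did not overlap, and for Ccng1, Plk3 and Zfp365, added after their values were seen. Of the other pathway genes those past the threshold, Atm, Cdkn1a and Cdkn2a were named. Alternatives were the array letter as a block, quantile normalization, cyclic loess, median centring, only genes above background on at least 3 arrays, a variance trend, other treatments of several clusters, another threshold, and leaving out each array. Induced A alone was added after seeing the data. Array number limits the precision. Promoter sequences are RefSeq's, for assembly GRCm38.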

Additional observations from a re-analysis of the deposited data

How the results depend on the processing

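The count of members called lower was 1 under quantile normalization, cyclic loess, the brightness filter, the variance trend and both other treatments of several clusters. It was 3 with the letter as a replicate block (Polk, Sesn1 and Tnfrsf10b), 3 at an adjusted p under 0.1, 0 after median centring, and 0 to 9 when 1 array was left out. Of all 22180 genes, 108 were called lower after quantile normalization, 118 after cyclic loess and 160 after median centring. With 1 array left out, 47 to 3535 of all genes were called lower and 45 to 1998 higher. The share of all genes at an adjusted p under 0.1 was not counted. The count called higher was 0 throughout, except 0 to 1 when 1 array was left out. Whether the letters pair the samples was not settled. Deviations of same-letter arrays correlated at -0.31, -0.28 and 0.42, but deviations from a mean of 3 arrays depend on each other. The block called 174 genes higher and 425 lower, against 83 and 232 without it. The members' median was -0.19 after quantile normalization, -0.18 after cyclic loess and -0.12 with induced A alone. Higher genes made up 26.3% of all calls as deposited, 41.9% after quantile normalization and 41.3% after cyclic loess. Median centring moved the median of all genes from 0.06 to -0.06.

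Uncalled differences changed sign as follows. After quantile normalization Pmaip1 was at 0.045, Apaf1 at 0.094, Ei24 at 0.030, Plk2 at -0.014, Rrm2b at -0.0013 and Tigar at 0.15. After cyclic loess Mdm4 was at 0.026, Pmaip1 at 0.019, Apaf1 at 0.11, Ei24 at 0.060, Plk2 at -0.013, Rrm2b at -0.00040 and Tigar at 0.15. After median centring Rrm2b was at -0.070 and Dcxr at -0.013. With induced A alone Ei24 was at 0.0009, Perp at 0.11, Plk2 at -0.0016, Rrm2b at -0.030 and Tigar at 0.12. Without 1 array, Pmaip1 ranged from -0.29 to 0.0093, Perp from -0.098 to 0.019, Eda2r from -0.039 to 0.031, Rrm2b from -0.0071 to 0.086 and Tigar from -0.14 to 0.010. The cause was not tested. Tnfrsf10b lost its call without induced B or C, as given above.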
